A study of Homo sapiens with 12 samples.

Results

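Processed pseudogenes are copies of messenger RNAs that were written back into the genome, without introns and mostly without a promoter of their own. m6A, a methyl group on adenosine inside RNA, is mapped by sequencing RNA fragments bound by an m6A antibody (IP) beside the fragments before enrichment (input), and FTO is an enzyme that removes it. A pseudogene RNA can resemble the RNA of its parent gene closely, so short reads of one can be placed on the other.

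The regions described here are the m6A peaks that carried the transcript biotype processed pseudogene, in cells with FTO knocked down and in control cells. They numbered 1035 of 28888 peaks in the FTO knockdown list (3.58%, exact 95% binomial interval 3.37 to 3.804%) and 1851 of 39492 peaks in the control list (4.69%, interval 4.48 to 4.90%), 2886 of 68380 peaks in all. These peaks named 1306 pseudogenes, 704 in the knockdown list and 1206 in the control list, of which 604 stood in both. Rows of the authors' deposited table of differential m6A were added where they had a gene name and the same position as one of these peaks, which gave 52 of its 8687 named rows. All libraries came from HGC27, a line established from a human gastric carcinoma. Labels give the genotype of the knockdown samples as FTO-KO, with titles numbered by sh, whereas the protocol speaks of a knockdown; whether each number is another hairpin is not stated. The genotype of the control samples is given as WT. Poly(A) RNA was used, with 3 IP and 3 input libraries per condition, and no further treatment is stated. Each condition had a single peak list, so no peak has replicate values, and intervals cover counting error only.

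Letters of a peak could be read where it lay in a RefSeq window around the start of a neighbouring gene (GRCh38.p14), which held for at least 60 bases of 20 peaks. The 3 stretches below are from peaks called on the pseudogene itself, chosen because they show the RNA letters of the pseudogene and because 2 of them come from peaks in the differential table. They run 5′ to 3′ on the pseudogene's strand, and capitals mark GGAC, the core of the sequence in which m6A is usually found. On the gene's strand, 66.3% of all 35116 RefSeq windows of 300 bases held GGAC, and 87.4% held it on either strand. PIGCP1, a copy of PIGC (a subunit of the enzyme that starts GPI anchor synthesis), is read at chr11:33075900-33076199, minus strand, a part of its control peak. AC009120, given as RPL21P118 in the gene name table and a copy of the ribosomal protein gene RPL21, is read at chr16:74313087-74313386, minus strand, a part of its knockdown peak. AC093591, which the files describe as a copy of INIP (a partner of single-stranded DNA binding proteins), is read at chr4:127809170-127809252, plus strand, a part of its control peak.
PIGCP1: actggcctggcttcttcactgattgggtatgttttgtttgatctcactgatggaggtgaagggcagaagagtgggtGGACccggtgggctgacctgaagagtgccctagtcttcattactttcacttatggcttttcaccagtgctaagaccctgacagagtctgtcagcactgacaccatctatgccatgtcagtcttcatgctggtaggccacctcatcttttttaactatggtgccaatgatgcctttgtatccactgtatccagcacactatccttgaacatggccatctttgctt
AC009120: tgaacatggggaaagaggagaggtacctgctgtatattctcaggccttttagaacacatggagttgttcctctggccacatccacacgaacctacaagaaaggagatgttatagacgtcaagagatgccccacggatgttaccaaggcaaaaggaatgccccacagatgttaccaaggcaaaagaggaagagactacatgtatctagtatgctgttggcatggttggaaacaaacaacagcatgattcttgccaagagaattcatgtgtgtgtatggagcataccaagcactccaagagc
AC093591: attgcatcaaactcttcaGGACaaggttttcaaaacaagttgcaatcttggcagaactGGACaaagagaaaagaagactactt
The PIGCP1 stretch held GGAC 1 time, the AC093591 stretch of 83 bases held it 2 times, and the AC009120 stretch did not hold it. A match is a description of the letters and not a mapped site. PIGCP1 had a fold enrichment of 5.09 in the knockdown list, where its peak reached 84 bases of the window, and 4.41 in the control list. AC009120 had 6.15 in the knockdown list and 4.56 in the control list, and AC093591 had no own peak in the knockdown list and 24.4 in the control list.

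The 6 inputs had library-level values, given as FPKM for 6396 genes, each with a row of differential m6A, and depth is unknown. FPKM summed over these genes to between 83712.5 and 86902 in knockdown libraries and between 74289 and 78461 in control libraries. FTO had 0.786, 0.830 and 0.765 FPKM in knockdown inputs, against 5.48, 5.68 and 5.52 FPKM in control inputs (log2 change -1.87, SE 0.05, limma adjusted p 4.99e-07). Of 17 marker genes of gastric epithelium, mesenchyme and blood, 3 had FPKM values. The mesenchymal markers COL1A1 and THY1 had 138 to 154 and 14.4 to 15.4 FPKM in knockdown inputs, against 165 to 176 and 11.8 to 12.9 FPKM in control inputs, and the epithelial marker MUC1 had 1.19 to 1.61 FPKM in knockdown inputs, against 1.19 to 1.26 FPKM in control inputs. These values alone do not show an epithelial profile, and the other markers were not analysed here. The labels do not say that the numbered libraries were separate cultures, so p-values measure the spread between these libraries, which may be technical.

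Many peaks annotated to a processed pseudogene were called on another gene. Each peak carries the gene model on which it was called and, separately, the gene to which it was annotated. In the knockdown list 541 peaks (52.3%) were called on the pseudogene's own model, 60 on another model at a place inside the pseudogene, and 434 (41.9%) on another model at a place outside it. In the control list these were 1044 (56.4%), 90 and 717 (38.7%). The median distance of the outside peaks from the pseudogene's start was 10436 bp in the knockdown list and 9954 bp in the control list.

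The share on another model was 47.7% (interval 44.6 to 50.8%) in the knockdown list and 43.6% (41.3 to 45.9%) in the control list. Among peaks of all biotypes it was 21.7% and 22.6%, among peaks annotated to lncRNA 37.8% and 32.7%, and among those annotated to protein-coding transcripts 20.0% and 22.0%. Of the pseudogene peaks on another model, 82.0% in the knockdown list and 76.8% in the control list were on a protein-coding gene, and 57.3% and 59.9% were annotated as 3′ UTR. Own-model peaks were annotated as exon in 96.5% and 97.5%. So 283 of the 1035 knockdown peaks and 483 of the 1851 control peaks were peaks annotated as 3′ UTR on the model of another gene.

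**Figure D1:**
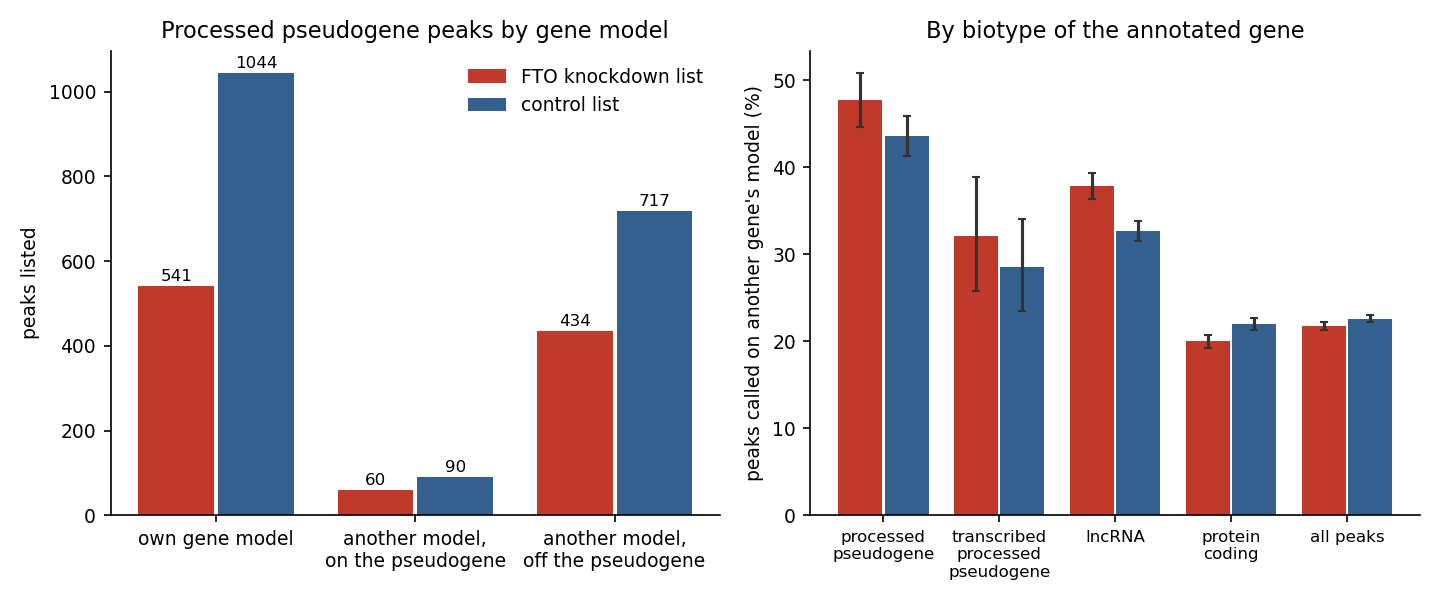
Left, number of processed pseudogene peaks by the gene model on which they were called, FTO knockdown list left of control list; right, percent of peaks called on a gene other than the annotated one, by biotype, with exact 95% binomial intervals. Processed pseudogenes stand highest of the 5 sets shown, at 47.7% in the knockdown list and 43.6% in the control list.

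Single loci show the same thing. RPL22P14, annotated as a copy of a ribosomal protein gene, had 6 knockdown peaks, and all of them were called on CASP8AP2, between chr6:89862512-89862781 and chr6:89868316-89868915, with enrichment of 3.56 to 11.2. MTCO2P2, a copy of a mitochondrial gene, had 8 control peaks, all on SMAD2, a signal carrier of the TGF-beta pathway. ARF4P2 had its knockdown peak of 68.9-fold enrichment on DIDO1, in its 3′ UTR. TTC3P1 was the opposite case: its 7 control peaks were all on its own model, with enrichment of 3.60 to 42.0. FNBP1P1, a copy of the gene of an F-BAR protein that bends membranes, had both kinds in the knockdown list, with 3 peaks on its own model and 3 on TET3.

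The same bases were at times listed more than once. Of own-model pseudogene peaks, 79 of 541 (14.6%, interval 11.7 to 17.9%) in the knockdown list and 115 of 1044 (11.02%, interval 9.18 to 13.1%) in the control list overlapped a peak of the same list called on another model. For own-model peaks of all biotypes these shares were 11.8% and 11.9%. The other model lay on the same strand for 30 of the 79 and 48 of the 115, on the opposite strand for 40 and 51, and had no strand in the files for the rest. EIF3EP1, a copy of a translation initiation factor gene, shares bases with KHDC1-AS1 on the same strand. Its own control peak at chr6:73292859-73293068 had 1.96-fold enrichment and the KHDC1-AS1 peak at chr6:73292840-73293079 had 1.8-fold. AL627389 and JPX, a long noncoding RNA of the same strand, each had a control peak of 2.75-fold enrichment, and these shared 414 bases. For such peaks the files do not tell which RNA was methylated.

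Own-model peaks had about the same enrichment as all peaks but far weaker p-values. Their median fold enrichment of IP over input, a value given by the authors for each peak, was 7.88 in the knockdown list and 6.87 in the control list. Pseudogene peaks on another model had medians of 7.72 and 6.87, and all peaks had 7.05 and 6.11. The median log10 p was -5.78 in the knockdown list and -3.46 in the control list for own-model peaks, against -42.5 and -10 for peaks on another model and -41.8 and -11.1 for all peaks. Weak p-values were not particular to this biotype. Own-model lncRNA peaks had medians of -8.73 and -4.24. Those of the separate biotype transcribed processed pseudogene had -9.8 and -5.32. An adjusted p of at most 1e-05 was reached by 49.9% of own-model peaks in the knockdown list and 31.6% in the control list, by 82.8% and 59.7% of those on another model, and by 81.4% and 61.7% of all peaks. An adjusted p above 0.05 was listed for 8.32% and 24.8% of own-model peaks, against 2.40% and 11.4% of all peaks.

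Some weak peaks shared exactly the same p-value, mainly in the control list. In the control list 49 of the 1044 own-model peaks (4.69%) had a log10 p of -1.32, the most frequent value there, with a median enrichment of 6.11; the share over all control peaks was 2.31%. In the knockdown list the most frequent log10 p, -2.06, was that of 4 of the 541 own-model peaks (0.74%), against 0.44% of all knockdown peaks. Own-model peaks were also shorter. Their median exonic length was 180 bp in the knockdown list and 267.5 bp in the control list, against 301 and 361 bp for those on another model. It was 210 and 298 bp for own-model lncRNA peaks, and 233.5 and 301 bp for own-model peaks of transcribed processed pseudogenes.

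**Figure D2:**
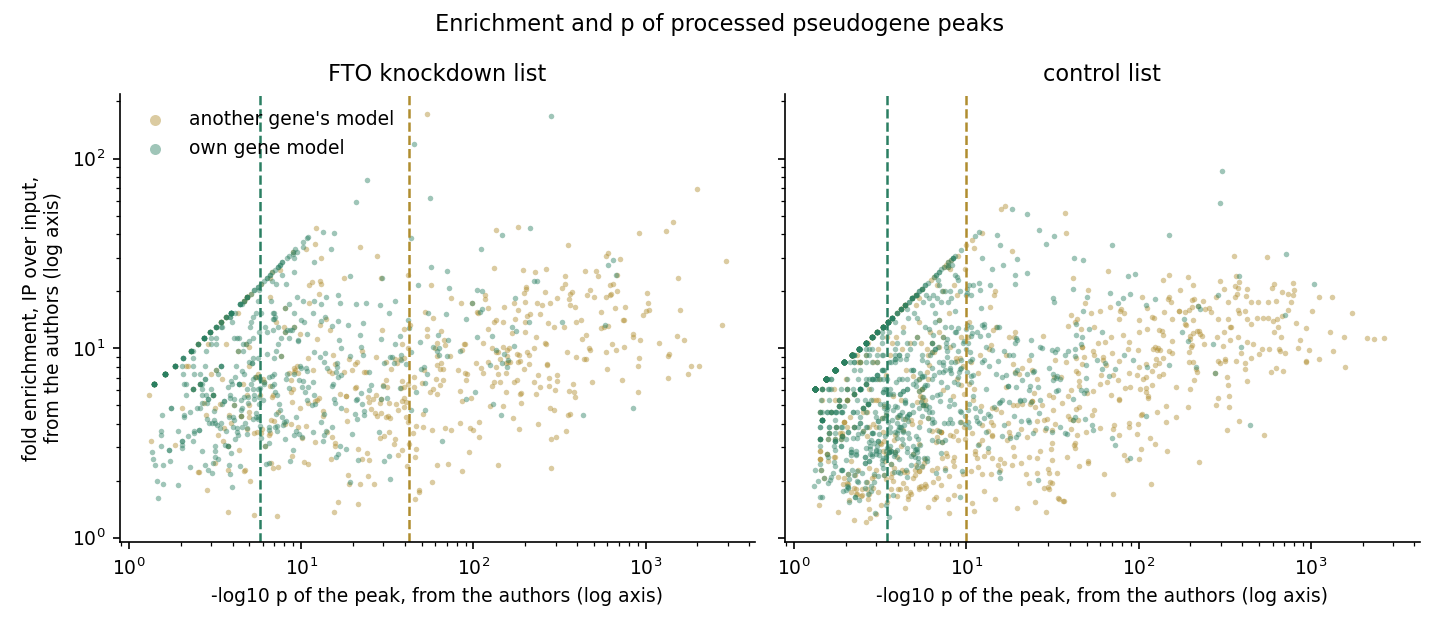
Fold enrichment of each processed pseudogene peak against its -log10 p, both given by the authors and both on log axes, FTO knockdown list left and control list right, with own-model peaks in green and peaks on another model in ochre; dashed lines mark medians of -log10 p. Both kinds span the same range of enrichment, while own-model peaks lie to the left, and many fall on common lines at the upper edge.

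Peaks of pseudogenes recurred less between the lists than peaks overall. At an overlap of at least 1 bp, 85.5% (interval 83.2 to 87.6%) of the knockdown pseudogene peaks overlapped a control peak, against 88.8% of all knockdown peaks. In the other direction 44.9% (42.6 to 47.2%) of the control pseudogene peaks overlapped a knockdown peak, against 57.9% of all control peaks. For own-model peaks these shares were 77.8% and 38.3%, and 355 pseudogenes had an own-model peak in both lists. Own-model control peaks that were not shared had a median log10 p of -2.515 and a median length of 211 bp, against -8.12 and 387.5 bp for shared ones. The control list is longer and its enrichment lower, and the part of that in these shares was not tested.

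Along the pseudogene, midpoints of own-model peaks were spread over the body. The midpoint of a wide peak cannot lie near an end of the model, so the shares below depend in part on peak width. The median share of the model covered was 18.5% in the knockdown list and 28.4% in the control list. Leaving out peaks that covered at least 90% of the model, 28.5%, 37.7% and 33.7% of 522 knockdown peaks had their midpoint in the first, middle and last part of 3 equal parts, and 26.8%, 35.9% and 37.3% of 939 control peaks did. A peak that covered at least 90% of its model was listed 19 times (3.51%) in the knockdown list and 105 times (10.1%) in the control list. On chromosome X lay 5.70% of knockdown and 5.89% of control pseudogene peaks, against 2.66% and 3.03% of all peaks. On chromosome 2 these were 10.05% and 8.16%, against 6.19% and 6.55%, and on chromosome 19 they were 5.31% and 4.11%, against 7.75% and 6.83%.

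**Figure D3:**
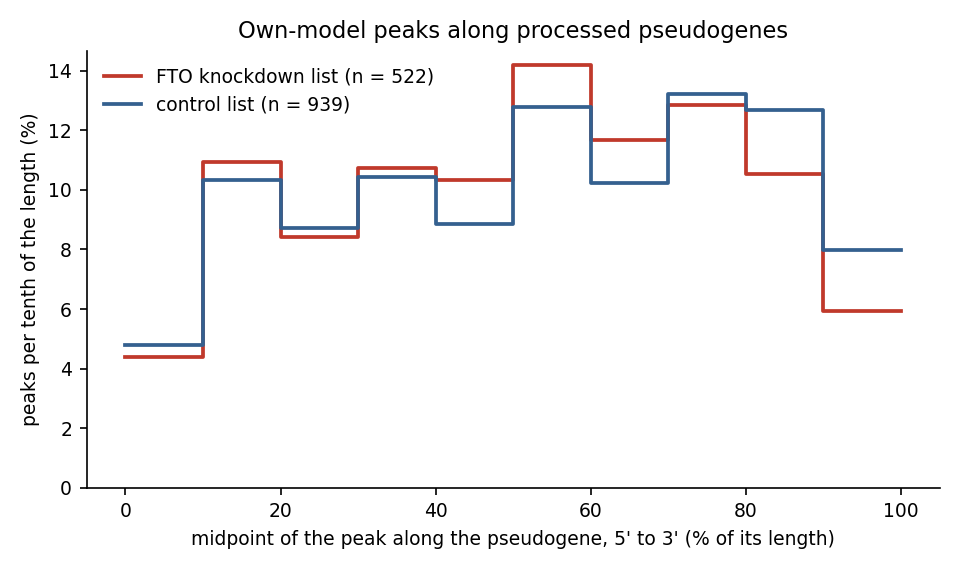
Share of own-model pseudogene peaks by the position of their midpoint along the pseudogene, 5′ to 3′ in steps of 10% of its length, for 522 knockdown and 939 control peaks that covered less than 90% of the model. Both lists have few midpoints in the first step, where a wide peak cannot have its midpoint, and neither has a single dominant place.

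A parent gene was named for 743 pseudogenes from the symbol and for 364 from the description in the files, 659 parents in all, and 199 pseudogenes had none. Cytosolic ribosomal proteins were the most frequent of the parent classes looked at: 80 pseudogenes of this class had an own-model peak in the knockdown list and 144 in the control list, with median enrichment of 7.28 and 6.87. Pseudogenes of cytoskeleton and keratin genes followed with 30 and 39, and those of glycolysis and metabolism genes with 25 and 39.

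The parent had a peak on its own model in the same list for 238 of 385 own-model pseudogenes with a named parent in the knockdown list (61.8%) and for 521 of 686 in the control list (75.9%). These pseudogenes share parents. With each parent counted once, 173 of 255 had a peak in the knockdown list (67.8%, interval 61.7 to 73.5%) and 339 of 439 in the control list (77.2%, interval 73.0 to 81.1%). Over all RefSeq protein-coding genes, 52.0% and 61.5% had a peak. Parents and all coding genes were not matched for RNA level, and its part in the difference was not tested. Where both had one, the pseudogene's highest enrichment was above the parent's for 142 of 238 pairs in the knockdown list and 323 of 521 in the control list.

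In several large families the copies had peaks where the parent had none listed, in both lists or, for RPSA and KRT8, in the knockdown list alone. RPSA, a laminin receptor and ribosomal protein, had no listed peak in the knockdown list and one of 1.75 in the control list, with peaks on 9 and 15 of its copies. KRT18, a keratin of simple epithelia, had no listed peak, while 7 of its pseudogenes had 9 own-model peaks in the knockdown list (enrichment 3.07 to 41.2) and 8 had 13 in the control list (2.29 to 23.7). KRT18P4 had 17.8 and 41.2 in the knockdown list, and 23.7 and 6.87 in the control list. KRT8, the partner of KRT18 in filaments, had no listed peak in the knockdown list and a highest one of 6.11 in the control list. Of its copies, 13 had a peak in the knockdown list and 13 in the control list, 15 different copies in all. GAPDH, a glycolytic enzyme, had no listed peak, and 5 of its pseudogenes had peaks in the knockdown list (3.15 to 24.3) and 8 in the control list (3.82 to 19.1). The ribosomal protein genes RPL7A and RPS2 had none either, with 8 copies each in the knockdown list, and 14 and 6 in the control list. How the authors placed reads that fit a parent and its copies equally well is not given in the sources used here, so the split of signal within a family is uncertain.

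The copies of TOMM40, the channel of the outer mitochondrial membrane, differed in which list had the higher value. AL589182 had an enrichment of 42.8 in the knockdown list and 18.2 in the control list, TOMM40P1 had 25.6 and 18.3, TOMM40P2 had 18.4 and 39.7, and TOMM40P4 had 22.6 and 19. All of them stood above the highest TOMM40 peak, which had 6.79 in the knockdown list and 2.90 in the control list. Copies of IMPDH1, an enzyme of guanine nucleotide synthesis, had 12 peaks over 4 pseudogenes in the knockdown list and 9 over the same number in the control list, none above 12.9. Copies of FTH1, the heavy chain of the iron store ferritin, ranged from 2.19 for FTH1P20 to 16 for FTH1P3 in the knockdown list and from 1.99 for FTH1P20 to 29.3 for FTH1P23 in the control list; the highest FTH1 peak had 3.67 and 2.90. Other families went the other way. The highest CIC peak had 28.1 in the knockdown list and 21.8 in the control list, against at most 23.9 and 21.4 on its copies. For SNX18 these were 21.8 and 22, against 14.6 and 19.9. The highest RPL13 peak stood above its copies in the control list alone, with 10.3 against 7.64.

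The highest enrichment on an own model was that of GNL3LP1, a copy of a nucleolar GTPase gene, at chr5:60891935-60893308, with 167-fold in the knockdown list and 85.9-fold in the control list. A peak called on ERCC8, a gene of transcription-coupled DNA repair, shared 1251 of these bases in the knockdown list with 13.7-fold enrichment, and the like peak of the control list had 12.3-fold. KLF2P4 had 120-fold in the knockdown list at chr2:131299339-131299817, where FAR2P4 on the opposite strand had a peak of 103-fold, and 29.4-fold in the control list, where FAR2P4 had 31.7-fold. ACTG1P10, a copy of the gene of cytoplasmic gamma-actin, had 62.3-fold in the knockdown list and 9.85-fold in the control list, where KANTR on the opposite strand had 20.4-fold and 10.5-fold. Own-model control peaks of FNBP1P1, NUDT9P1 and FAM220CP had 58.0-fold, 54.2-fold and 51.2-fold. In the knockdown list FNBP1P1 reached 15.4-fold, NUDT9P1 31.5-fold and FAM220CP 7.85-fold. At the position of the FNBP1P1 control peak, the authors' deposited table gave a log2 change of m6A of -0.50, knockdown over control. Enrichments of the 2 lists are therefore not read here as a measured change. The highest value of all, 172-fold for DPPA3P1 in the knockdown list, was called on TMSB15B in its 5′ UTR, and the control peak there had 9.16-fold. The pseudogene's own model had 27.5-fold beside it in the knockdown list and 6.87-fold in the control list.

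In the authors' deposited table, 23 of the 52 matching differential rows were higher in knockdown and 29 were lower, with a median log2 change of -0.27. Over all 8687 named rows 55.4% were higher in knockdown and 44.6% were lower, with a median of 0.28. An adjusted p under 0.05 was listed for 44 of the 52, and for 88.2% of all named rows. The table's log2 values are control over knockdown and were turned round here: after turning, 182 of 201 rows whose position stood in both lists, and 5 of the 5 pseudogene rows among them, had the sign of knockdown over control enrichment. The table holds no value per library.

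The direction followed the list in which a row's position stood. Of the 8 pseudogene rows found in the knockdown list alone, 8 were higher in knockdown, as were 97.2% of all such rows. Of the 39 found in the control list alone, 12 were higher and 27 were lower, and 30.2% of all such rows were higher. In these strata the pseudogene shares were near those of the whole table. Of the 5 found in both lists, 3 were higher (60%), against 85.1% of all such rows. Among the 133 rows with this biotype whose position stood in neither list, which are not counted in the 52, 55 were higher and 78 lower (41.4% higher, median log2 change -0.54), against 55.9% higher and a median of 0.30 over all 6403 such rows. By gene model, 15 of 29 own-model rows and 8 of 23 rows on another model were higher in knockdown, against 55.4% of all named rows. Of these, 17 own-model rows and 22 rows on another model stood in the control list alone. There 5 of the 17 (29.4%) and 7 of the 22 (31.8%) were higher, both near the 30.2% of all such rows.

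**Figure D4:**
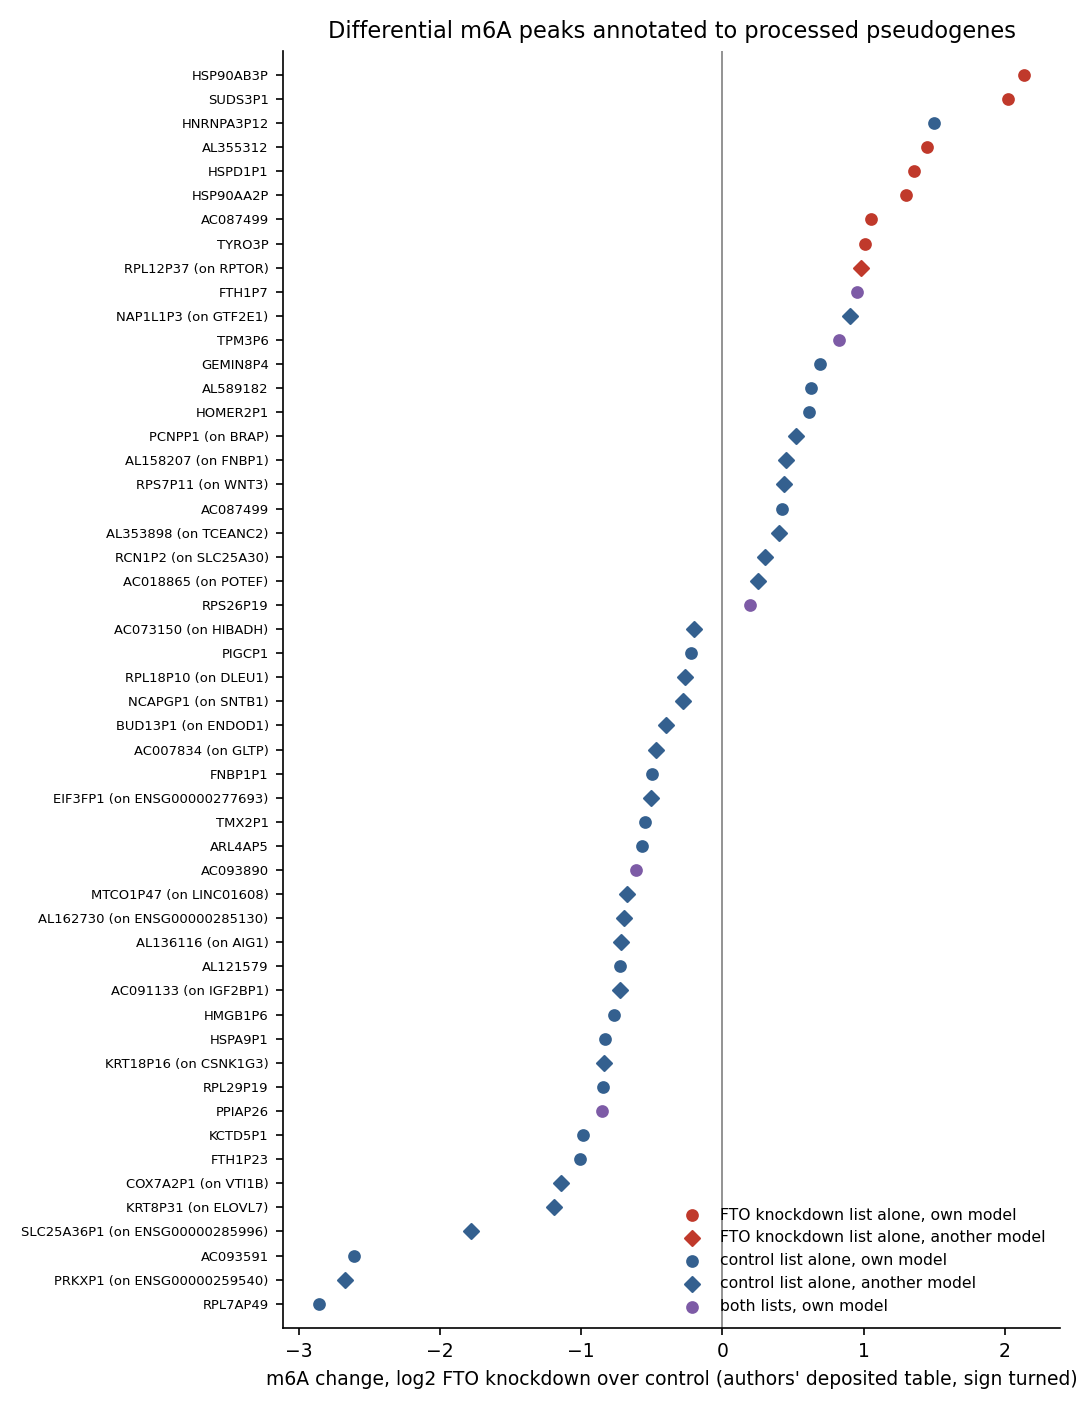
Log2 change of m6A, FTO knockdown over control, for the 52 differential rows annotated to processed pseudogenes, from the authors' deposited table with its sign turned; circles are own-model peaks and diamonds are peaks on the gene named in brackets. The 8 rows from the knockdown list alone all lie right of 0.

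In the authors' deposited table HSP90AB3P, a copy of the HSP90 beta gene, rose by 2.14 on the log2 scale at chr4:87893420-87893598 (p 1.02e-08). Its RNA had 2.05, 2.49 and 2.30 FPKM in knockdown inputs, against 2.61, 2.22 and 2.28 FPKM in control inputs, and these overlap. HSP90AA2P, a copy of the HSP90 alpha gene, rose by 1.3 (p 8.51e-09) and HSPD1P1, a copy of the mitochondrial chaperonin gene, rose by 1.36 (p 0.000355) in that table. HSPD1P1 had 1.59, 1.90 and 2.44 FPKM in knockdown inputs, against 2.06, 1.96 and 1.28 FPKM in control inputs. SUDS3P1 had a log2 change of 2.02 in the authors' deposited table (p 0.0263), with an adjusted p above 0.05. HNRNPA3P12 had a log2 change of 1.5 in the authors' deposited table, also with an adjusted p above 0.05, and its own peak had 17-fold enrichment in the knockdown list and 5.09-fold in the control list. HNRNPA3P12 had 0.0384, 0.0678 and 0 FPKM in knockdown inputs, against 0.145, 0.139 and 0.111 FPKM in control inputs. AL355312, described as a copy of MMRN2, rose by 1.45 (p 0.001) in the authors' deposited table, and TYRO3P, a copy of a receptor tyrosine kinase gene, rose by 1.01 there. AL355312 had 0.310, 0.163 and 0.306 FPKM in knockdown inputs, against 0.207, 0.117 and 0.141 FPKM in control inputs, and these overlap. Copies of folding genes did not all share a direction. HSP90AB3P, HSP90AA2P and HSPD1P1 rose, and their rows stood in the knockdown list alone, where 97.2% of all rows were higher. In the authors' deposited table PPIAP26 fell by 0.85, and HSPA9P1 had a log2 change of -0.83 with an adjusted p above 0.05. The position of the HSPA9P1 row stood in the control list alone, where 30.2% of all rows were higher in knockdown.

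In the authors' deposited table RPL7AP49 had a log2 change of -2.86 (p 0.0324, adjusted p above 0.05). Its control peak there shared 391 of 407 bases with a 13-fold peak on another model of the same strand. Which of these RNAs changed is therefore not known. RPL7AP49 had 0.0998, 0.0371 and 0.128 FPKM in knockdown inputs, against 0.0913, 0.0347 and 0.114 FPKM in control inputs. PRKXP1 fell by 2.67 (p 0.000468) in that table at chr15:100558677-100559798, on the model of another gene that the files do not name. The peak on that model had 5.54-fold enrichment in the knockdown list, at a shorter span, and 30.5-fold in the control list. The FPKM in that row belong to PRKXP1 and not to the gene with the peak. PRKXP1 had 1.14, 0.567 and 0.970 FPKM in knockdown inputs, against 0.529, 0.451 and 0.240 FPKM in control inputs, so the knockdown libraries were the higher ones. AC093591, whose letters are given above, fell by 2.61 (p 0.00148) in the authors' deposited table. It had 0.0579, 0.633 and 0.0270 FPKM in knockdown inputs, against 0.199, 0.287 and 0.125 FPKM in control inputs, and the groups overlap. The RPL7AP49, PRKXP1 and AC093591 rows had positions in the control list alone, where 30.2% of all rows were higher in knockdown. PIGCP1, also shown above, fell by 0.22 in that table, although its listed enrichment was 5.09 in the knockdown list and 4.41 in the control list. That row has the position of the control peak alone. The control peak shared 299 of its 865 bases with a 3.59-fold peak on LINC00294, on the opposite strand.

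Among the 5 rows whose position stood in both lists, TPM3P6, a copy of a tropomyosin gene, rose by 0.83 (p 0.011) in the authors' deposited table and had an enrichment of 15.5 in the knockdown list and 7.17 in the control list. PPIAP26, a copy of the cyclophilin A gene, fell by 0.85 (p 0.00447) in that table, with 11.1 and 24.7. AC093890, described as a copy of SAV1, a scaffold of Hippo signalling, fell by 0.61 (p 0.00355) in the authors' deposited table, with 7.32 and 19.5.

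The differential rows of FTH1P7 and FTH1P23, copies of the ferritin heavy chain gene, had opposite signs. In the authors' deposited table FTH1P7 rose by 0.95 (p 7.59e-07) at chr13:22696052-22696313, and FTH1P23 fell by 1.01 (p 0.00339) at chr3:72929304-72929593. FTH1P7 had an enrichment of 8.63 in the knockdown list and 3.82 in the control list, and FTH1P23 had 7.5 and 29.3. The position of the FTH1P7 row stood in both lists, where 85.1% of all rows were higher in knockdown. That of the FTH1P23 row stood in the control list alone, where 30.2% of all rows were. FTH1P7 and FTH1P23 are copies of the same parent and share much of their sequence with it, and the placing of shared reads was not tested.

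Of the 23 rows on another model, 17 were annotated as 3′ UTR. RPL12P37 rose by 0.98 (p 2.51e-17) in the authors' deposited table, and that peak was called on RPTOR, a subunit of the growth kinase complex mTORC1, with 41.3-fold enrichment in the knockdown list. RPTOR had 9.76, 9.01 and 9.56 FPKM in knockdown inputs, against 8.27, 8.02 and 8.31 FPKM in control inputs, while the FPKM in the row belong to RPL12P37, with 0.255, 0.249 and 0.111 in knockdown inputs, against 0.0300, 0 and 0 in control inputs. Of the other genes that carry these peaks, POTEF, under AC018865, and ENDOD1, under BUD13P1, also had FPKM. AC018865 rose by 0.25 (p 0.0135) in the authors' deposited table, while POTEF had 5.94, 6.60 and 5.82 FPKM in knockdown inputs, against 9.23, 9.02 and 9.36 FPKM in control inputs. COX7A2P1 fell by 1.14 (p 1.26e-16) in that table on the 3′ UTR of VTI1B, a protein of vesicle fusion. KRT8P31 fell by 1.19 (p 0.001) on the 3′ UTR of ELOVL7, a fatty acid elongase, and RPS7P11 rose by 0.44 (p 0.000603) on the 3′ UTR of WNT3, a secreted signal, both in the authors' deposited table. For these rows the gene name and the FPKM describe the pseudogene and the peak describes the other gene. The RPL12P37 row stood in the knockdown list alone, where 97.2% of all rows were higher in knockdown. The AC018865, COX7A2P1, KRT8P31 and RPS7P11 rows stood in the control list alone, where 30.2% of all rows were.

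RNA level could be tested for few pseudogenes. Of 160 with FPKM values, 108 had a peak on their own model. The median level over the 160 was 0.291 FPKM, against 3.03 FPKM over all 6396 genes. A mean of at least 1 FPKM was reached by 37, of which 33 had an own-model peak. Of these 37, limma on log2(FPKM + 1), adjusted over all 4515 genes tested, called 11 (adjusted p under 0.05): 4 higher in knockdown and 7 lower. Over all tested genes 62.4% were called, 24.5% higher and 37.9% lower. Groups did not overlap for 12 of the 37, against 67.8% of all tested genes. The median log2 change was -0.10 over the 37 and -0.07 over all tested genes, and the median SE was 0.12 and 0.06. With quantile normalization the calls were 9 higher and 4 lower, and with median-centring 7 higher and 4 lower, so the balance of directions depends on the scaling. Of 39 parents of pseudogenes with FPKM values, 24 were called (61.5%), 10 higher and 14 lower. In bulk RNA, fewer cells with an RNA and less of it per cell cannot be told apart.

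**Figure D5:**
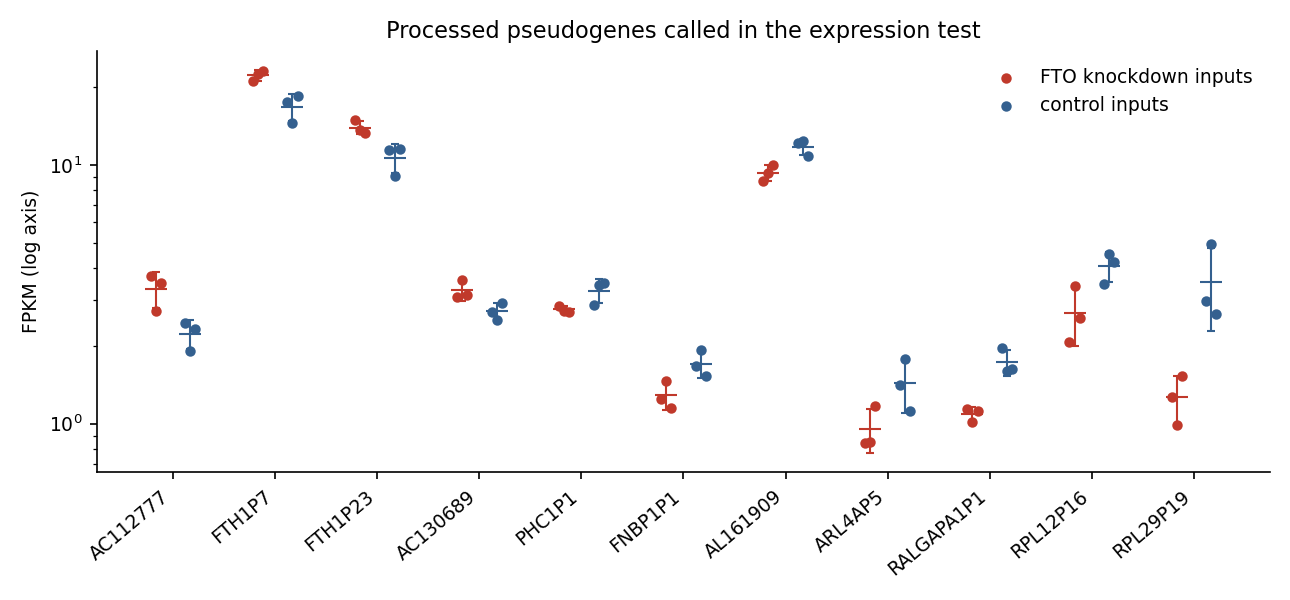
FPKM on a log axis of the 11 called pseudogenes in each of 3 FTO knockdown inputs (left, red) and 3 control inputs (right, blue), with mean and SD. The groups are apart for all but ARL4AP5.

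The strongest rises were small. AC112777, described in the files as a copy of UHRF1 (a factor that maintains DNA methylation), had 3.73, 2.72 and 3.51 FPKM in knockdown inputs, against 2.45, 1.91 and 2.32 FPKM in control inputs (log2 change 0.42, SE 0.10, limma adjusted p 0.00796). UHRF1 itself had 22.7, 23.9 and 23.5 FPKM in knockdown inputs, against 14.9, 15.5 and 13.4 FPKM in control inputs (log2 change 0.65, adjusted p 5.84e-05, limma). FTH1P7 had 21.0, 22.4 and 23.1 FPKM in knockdown inputs, against 17.4, 14.5 and 18.4 FPKM in control inputs (0.39, SE 0.08, limma adjusted p 0.00415). FTH1P23 had 14.8, 13.6 and 13.3 FPKM in knockdown inputs, against 11.4, 9.09 and 11.5 FPKM in control inputs (0.36, SE 0.09, limma adjusted p 0.00731). The knockdown libraries were the higher ones for each of these genes, and the groups do not overlap. FTH1 averaged 714 FPKM in knockdown inputs and 590 FPKM in control inputs (log2 change 0.27, limma adjusted p 0.00182). The FPKM of both copies were higher in knockdown, as the parent's were, while the m6A value of FTH1P23 fell. Reads of a parent can be placed on a copy, and their part in the FPKM of AC112777, FTH1P7 and FTH1P23 was not tested. AC130689 averaged 3.27 ± 0.284 FPKM in knockdown inputs and 2.71 ± 0.208 FPKM in control inputs (SD, n = 3 each, limma adjusted p 0.0288). Without knockdown library 2, control library 1 or control library 2 that call was lost (log2 change 0.15, 0.20 and 0.16), and with quantile normalization the log2 change was 0.33.

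RPL29P19, a copy of a ribosomal protein gene, fell most. It had 1.26, 0.990 and 1.53 FPKM in knockdown inputs, against 2.98, 4.95 and 2.66 FPKM in control inputs (log2 change -0.97, SE 0.18, limma adjusted p 0.00193). Its parent RPL29 had 230, 228 and 241 FPKM in knockdown inputs, against 247, 250 and 265 FPKM in control inputs (-0.12, limma adjusted p 0.0487). RPL29P19 was also lower in the authors' deposited table of m6A, by 0.84 on the log2 scale. RPL12P16 averaged 2.67 ± 0.675 FPKM in knockdown inputs and 4.07 ± 0.555 FPKM in control inputs (SD, n = 3 each, log2 change -0.47, limma adjusted p 0.0153), a call lost without control library 2 (-0.41). AL161909, described as a copy of RPS6, had 8.64, 9.28 and 9.94 FPKM in knockdown inputs, against 12.1, 12.3 and 10.8 FPKM in control inputs (-0.31, limma adjusted p 0.00412). RALGAPA1P1, a copy of a gene for a Ral GTPase activating subunit, had 1.14, 1.02 and 1.12 FPKM in knockdown inputs, against 1.95, 1.60 and 1.62 FPKM in control inputs (-0.38, limma adjusted p 0.00173). Its log2 change was -0.20 with quantile normalization (limma adjusted p 0.0329) and -0.61 with a pseudocount of 0.1. The parent RALGAPA1 fell by 0.36 (limma adjusted p 0.00341). The part of reads shared with parents in the FPKM of these copies was not tested.

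The calls for PHC1P1 (-0.18), FNBP1P1 (-0.24) and ARL4AP5 (-0.31) were the least stable, with limma adjusted p of 0.0451, 0.0244 and 0.0372. The call of PHC1P1 was lost without any 1 library other than control library 1 (-0.14 to -0.19). That of ARL4AP5, whose FPKM overlap between the groups, was lost without knockdown library 1 or 2 or control library 1 or 2 (-0.21 to -0.32). That of FNBP1P1 was lost without knockdown library 1 or 3 or control library 1 or 2 (-0.19 to -0.25). The 3 calls were also lost under both other scalings. With median-centring the log2 changes were -0.09 for PHC1P1, -0.15 for FNBP1P1 and -0.22 for ARL4AP5, and with quantile normalization they were -0.06, -0.05 and -0.12 (limma adjusted p 0.534, 0.544 and 0.34). With a pseudocount of 0.1 FNBP1P1 had -0.38 and ARL4AP5 had -0.53. The pseudogene with the highest FPKM of the 37, RPS7P11, had 39.7, 41.3 and 37.0 FPKM in knockdown inputs, against 47.2, 36.2 and 42.9 FPKM in control inputs (log2 change -0.09, SE 0.09, limma adjusted p 0.426), a difference within the spread of the libraries. HSP90AA2P (-0.10, limma adjusted p 0.554) and HSP90AB3P (-0.04, limma adjusted p 0.659), whose m6A values rose, were not called either.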

How the data were processed

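m6A RNA immunoprecipitation sequencing of 6 IP and 6 input libraries from HGC27 cells gave 1 peak list per condition, with the fold enrichment (a ratio of IP over input) and a log10 p score per peak, by the authors per the file headers. The authors' deposited differential table holds a log2 fold change, a p-value, a q-value and log10 scores per row, and FPKM of the input libraries. The submitters' processing notes name HISAT2 2.0, StringTie 1.3.0, Bowtie 0.12.2 and mm8, a mouse build, although the identifiers are human. Positions were read as GRCh38: of 2401 pseudogene peaks on a model that RefSeq names, 2283 (95.1%) overlapped that gene's span. For the peak caller and the handling of reads with several placements, the tool or setting is not stated in the labels or headers.

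Starts were raised by 1 to count from 1. Peaks were selected by biotype, with 3 repeated rows dropped, and the model on which a peak was called was compared with its annotated gene. Sharing between lists needed 1 bp. Differential rows without a gene name, 283 in all, were left out, since their columns are shifted. Expression was tested with limma 3.58.1 (R 4.3.3) on log2(FPKM + 1) over genes averaging 1 FPKM or more, with Benjamini-Hochberg adjustment over all of them, and the fit was tested on simulated data. A fold on this scale understates the change of low genes. Named were the 8 peaks of highest enrichment per list, the genes with most peaks, the highest 2 of each parent class, the 10 largest rises and falls, and called genes. Other peaks and families were named after their values were seen. Sequences are from RefSeq, GRCh38.p14. The members and lists were chosen with earlier results of these data known.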

Additional observations from a re-analysis of the deposited data

How the results depend on the processing

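Peaks with an adjusted p of at most 1e-05 numbered 679 in the knockdown list (2.89% of such peaks) and 812 in the control list (3.33%), and with 4-fold enrichment or more the shares were 4.03% and 5.36%. With 50% reciprocal overlap, 43.9% of knockdown and 25.2% of control peaks were shared. With 1 peak per gene, the median enrichment was 8.89 and 7.86, and the median length in the control list was 352 bp. In an alternative chosen after seeing the data, own-model rows of the differential table were 15 higher and 14 lower. Called pseudogenes numbered 3 (2 higher, 1 lower) at a mean of at least 5 FPKM and 30 (25 lower) with no filter, where more genes were tested; median-centring gave 7 higher and 4 lower, and quantile normalization 9 and 4. The cause of these last shifts was not tested. Leaving out 1 library at a time, 9 to 15 were called, 3 to 6 higher and 5 to 11 lower, with 11 lower without control library 3. Same-numbered libraries did not deviate together (correlations -0.0769, 0.0278 and 0.0247), so the numbers were not taken as pairs; with the replicate block 13 were called, 5 higher and 8 lower, of which 8 were among the 11 and 5 were others. AC130689, ARL4AP5 and PHC1P1 were not called with the block (limma adjusted p 0.0549, 0.0616 and 0.067). Of 135 alternative values of the called genes, 105 kept the call, 30 lost it and 0 changed sign. FPKM and enrichment hold no read numbers, so depth is unknown and no limit of detection can be given.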
